A study of Bos taurus with 8 samples.

Results

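The mitochondrial ribosomal proteins were taken as every gene whose symbol in the array's probe annotation starts with MRPL or MRPS and a number. This rule found 65 of the 12552 named genes, 41 of the large and 24 of the small subunit, measured by 138 of the 27952 named probes. The RefSeq table of bovine genes held 78 symbols of this form. The remaining 13 had no probe under that symbol and were not analysed here, except MRPL57 and MRPL58, which were measured under the older symbols MRP63 and ICT1 and are given further on. RNA was measured in in vitro produced bovine embryos in 4 groups of 2 biological replicates: morulae of day 5 after fertilization, and blastocysts, inner cell mass (ICM) and trophectoderm (TE) of day 9. ICM and TE were separated from day 9 blastocysts by hand with tungsten needles. The study reports that TE cells stayed attached to the dissected ICM. In the ICMs it stained, a minority of cells carried the TE marker CDX2. All embryos came from oocytes matured and fertilized in vitro and were grown in the same synthetic oviduct medium, and each sample pooled many embryos. On each of the 8 arrays, 1 sample was hybridized against aliquots of 1 pool of RNA from blastocysts. Every replicate 1 carried Cy3 and every replicate 2 Cy5, so the replicates of a group form a dye swap. The study's sample list calls blastocyst samples 1 and 2 identical to blastocyst pools 1 and 2, yet gives different embryo numbers for sample and pool. How much of the reference is the RNA of each blastocyst sample is not stated. The reference was itself made of blastocysts, so blastocyst ratios near 0 are not read as a result.

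Mitochondria keep a ribosome of their own, built from RNAs of the mitochondrial genome and from proteins encoded in the nucleus, made in the cytosol and imported. It translates the few mitochondrial mRNAs, all for subunits of the respiratory chain and ATP synthase. Part of its proteins descend from bacterial ribosomal proteins and part are particular to mitochondria. In the early embryo, mitochondria are inherited from the oocyte and change in shape and activity as the blastocyst forms.

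Every level is a log2 ratio of a sample over the blastocyst pool, and every difference is a difference of such ratios between groups. Each gene was read from its probe of highest mean intensity, and was called at an adjusted p under 0.05 (limma, Benjamini-Hochberg over all gene probes) and at least a 2-fold difference. Median sample intensities ranged from 229.9 to 536 over the arrays, with 90.3% to 94.8% of gene probes above background. The members were bright: the median of their mean intensities was 4147, against 973 for all named genes. By this probe, 63 of 65 members lay above background on all 8 arrays, and none was saturated. Markers count as measured only where they had a named probe here. The listed POU5F1, CDX2 and KRT18, for which the study reports array values, had none. All 3 measured pluripotency genes of 6 listed were called higher in the ICM than in the TE (log2 differences 1.34 to 3.73). Of 10 listed TE genes 5 were measured, and 4 of these were called higher in blastocysts than in morulae. Between ICM and TE, 2 of these 5 TE genes were called higher in the TE, 4 of 5 lay on that side and TFAP2C on the other (0.46), while none of 5 measured primitive endoderm markers was called. Of 12 markers of cumulus cells, which surround the oocyte, 9 were measured. None was called higher in morulae, and 2 (HSD3B and COL1A2) were called higher in blastocysts (22.2%, against 10.2% of all named genes). All 9 had a higher mean log2 ratio in blastocysts than in morulae, with a median difference of 0.37. The summed intensity of the 9 markers, not normalized between arrays, was 36611 and 50664 in the morula samples against 33474 and 51622 in blastocysts. Their part in the differences below was not tested.

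The members were highest in morulae. Their median level was 0.47 and 0.43 in the morula samples, 0.07 and -0.07 in whole blastocysts, 0.02 and -0.20 in dissected ICM and -0.15 and -0.36 in dissected TE. Both morula medians lay above all 6 medians of day 9, and both TE medians lay below both blastocyst medians. For 44 of 65 members (67.7%) both morula samples were above all 6 day 9 samples, a pattern of 23.0% of all named genes. The reverse held for 3 members (4.62%), against 26.0% of all named genes. These 3 were MRPL3, MRPL36 and MRPL24. The highest group mean was in morulae for 51 members (78.5%, against 36.6% of all named genes) and in the TE for none. The lowest group mean was in the TE for 44 members (67.7%, against 24.3%), but with median centring in place of loess for 29, with 31 lowest in the ICM. A ratio to a pool is relative to all labelled RNA of the sample, so fewer cells that express a gene and less of its RNA per cell cannot be told apart.

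**Figure D1:**
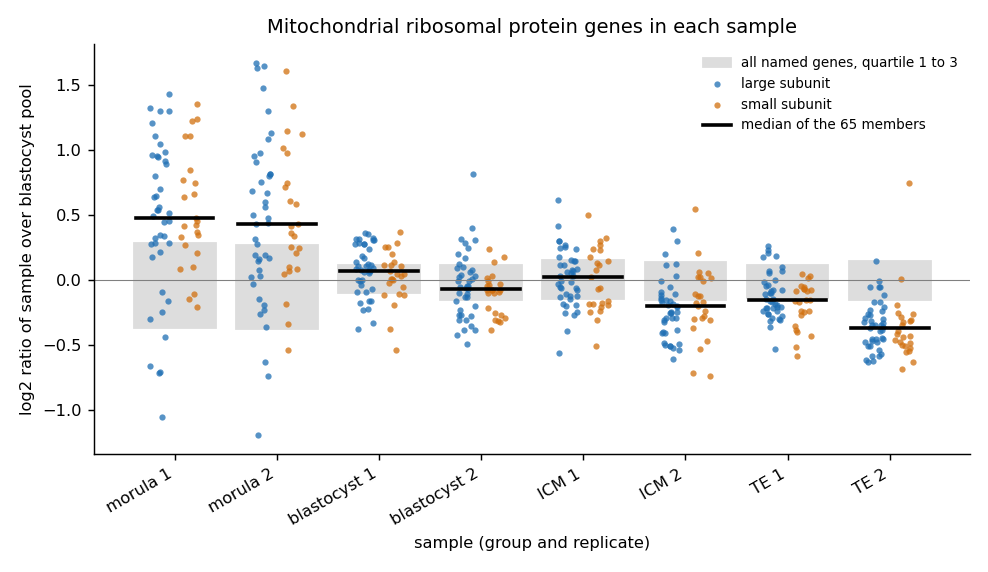
Log2 ratio of sample over blastocyst pool (y axis) for the 65 members in each of the 8 samples (x axis). Each point is 1 gene, blue for the large and orange for the small subunit, black bars are the members' medians and grey boxes run from quartile 1 to quartile 3 of all 12552 named genes. The morula medians of 0.47 and 0.43 stand above the grey boxes, and the lowest median, -0.36, is that of TE replicate 2.

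Between morula and blastocyst, 11 of 65 members (16.9%) were called, beside 17.4% of all named genes, a share near that background. The direction was uneven. Higher in morulae were 10 members (15.4%), against 7.15% of all named genes, and higher in blastocysts was 1 member (1.54%), against 10.2%. With no fold minimum, 36 members (55.4%) were higher in morulae and 2 (3.08%) in blastocysts, against 18.7% and 21.1% of all named genes. The median difference, blastocyst minus morula, was -0.51 over the members and 0.04 over all named genes. Below 0 lay 53 of 65 members, beside 5756 of the 12552 named genes. Both morula samples were above both blastocyst samples for 46 members (70.8%, against 28.2%), and below them for 6 (9.23%, against 32.4%). The count of 11 rested in part on morula replicate 2: without it MRPL3, MRPL16, MRPL18, MRPS7 and MRPS23 fell under 2-fold. With median centring in place of loess, 21 members were called higher in morulae (32.3%, against 10.0% of all named genes) and none higher in blastocysts (against 8.54%).

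**Figure D2:**
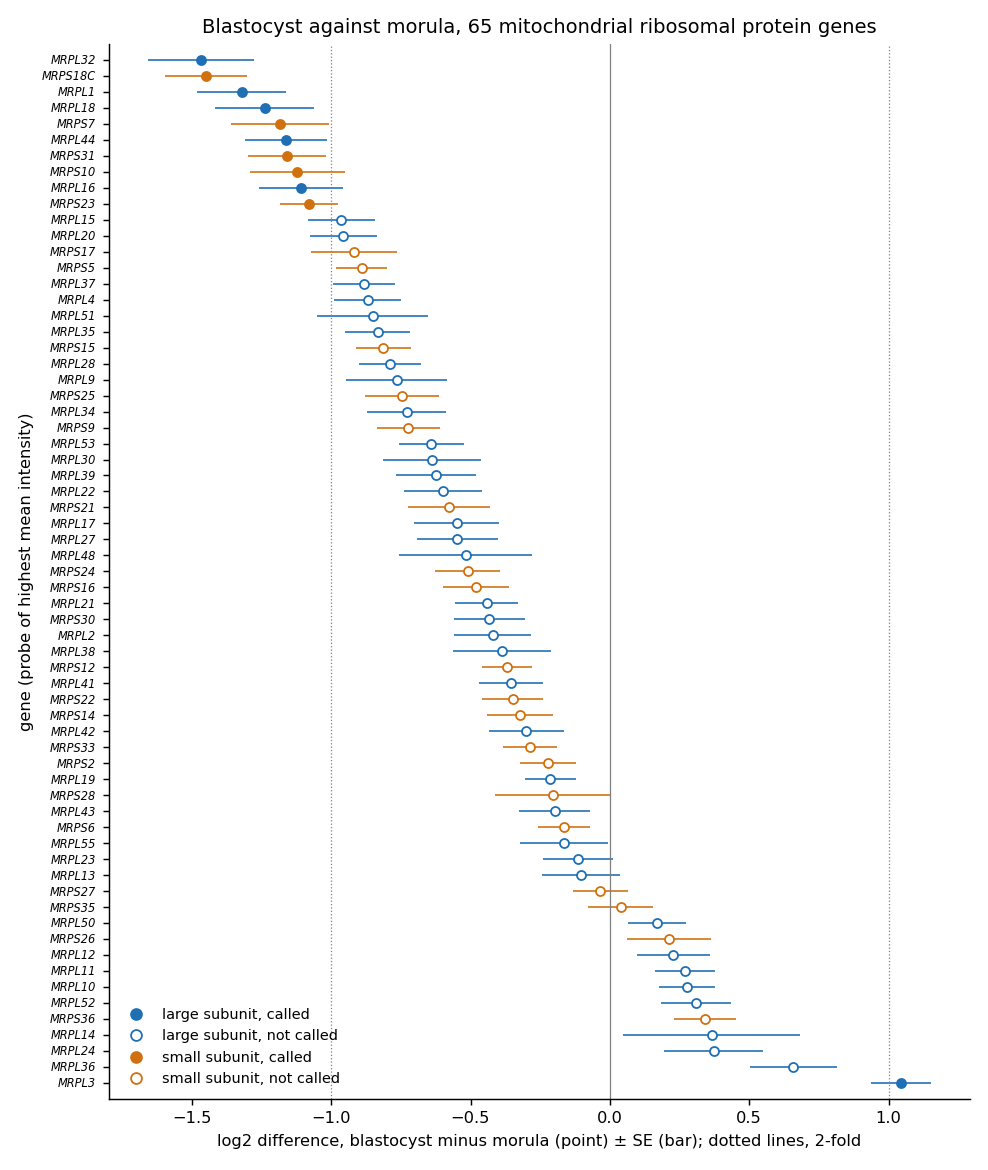
Log2 difference of blastocyst minus morula (x axis, point) with its standard error (bar) for each of the 65 members (y axis), blue for the large and orange for the small subunit. Filled points passed an adjusted p of 0.05 and 2-fold, marked by dotted lines. The 10 called members on the left run from -1.47 to -1.08, and MRPL3, at 1.05, stands alone on the right.

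In the large subunit, 5 of 41 members (12.2%) were called higher in morulae, against 7.15% of all named genes. Higher in blastocysts was 1 (2.44%, against 10.2%), and the median difference was -0.52. MRPL32, a zinc-binding protein that is trimmed by a membrane protease before assembly in yeast and mouse, had the lowest difference of all members. It read 1.30 and 1.63 in the morula samples, -0.17 and 0.17 in whole blastocysts, 0.06 and -0.16 in dissected ICM and -0.29 and -0.59 in dissected TE. The morula level was 2.76-fold that of blastocysts (log2 difference -1.47 ± 0.19, adjusted p = 0.00197), and all day 9 samples lay well below both morula samples. MRPL1, of the mobile stalk beside the exit site of the tRNA, read 1.43 and 1.67 in the morula samples, 0.36 and 0.10 in whole blastocysts, 0.24 and 0.39 in dissected ICM and -0.18 and -0.45 in dissected TE (log2 difference -1.32 ± 0.16, adjusted p = 0.00145, 2.5-fold). MRPL18, whose bacterial relative binds the 5S rRNA, read 1.21 and 1.64 in the morula samples, 0.09 and 0.28 in whole blastocysts, 0.12 and -0.01 in dissected ICM and -0.10 and -0.36 in dissected TE (log2 difference -1.24 ± 0.18, adjusted p = 0.00291). For these genes too no day 9 sample reached a morula sample, and the TE samples were the lowest. MRPL44, which carries a ribonuclease III fold and is particular to mitochondria, read 1.30 and 1.30 in the morula samples, 0.07 and 0.20 in whole blastocysts, -0.03 and -0.09 in dissected ICM and 0.10 and -0.32 in dissected TE (log2 difference -1.16 ± 0.15, adjusted p = 0.00173). MRPL16, near the tRNAs in the core of the subunit, read 1.11 and 1.13 in the morula samples, 0.07 and -0.05 in whole blastocysts, 0.14 and -0.41 in dissected ICM and -0.16 and -0.51 in dissected TE (log2 difference -1.11 ± 0.15, adjusted p = 0.00236). Both genes had morula replicates that agreed to within 0.05 on the log2 scale.

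The 3 large subunit members of highest intensity among those not called were MRPL53, MRPL39 and MRPL24. MRPL53 and MRPL39, both particular to mitochondria, lay below 2-fold with adjusted p of 0.00783 and 0.019 (log2 differences -0.64 and -0.62). MRPL53 read 0.80 and 0.80 in the morula samples, 0.28 and 0.04 in whole blastocysts, -0.20 and -0.25 in dissected ICM and -0.21 and -0.05 in dissected TE, so that both morula samples were above all others by more than 0.5. MRPL24, an early assembly protein in bacteria, went the other way without passing the test (log2 difference 0.37 ± 0.18, adjusted p = 0.176).

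The exception among the calls was MRPL3, a large subunit protein close to the site of peptide bond formation. It read -1.05 and -1.19 in the morula samples, -0.16 and 0.01 in whole blastocysts, -0.19 and -0.18 in dissected ICM and -0.26 and -0.33 in dissected TE. All 6 day 9 samples were above both morula samples by more than 0.7, and the blastocyst level was 2.06-fold that of morulae (log2 difference 1.05 ± 0.11, adjusted p = 0.000796). Its other probe, 998 in mean intensity, gave 0.86 (adjusted p = 0.00103). The size sat at the 2-fold limit: with normexp background correction the difference was 0.93, with median centring 0.76 and over the mean of its probes 0.95, all with adjusted p under 0.05. MRPL36, a small zinc-ribbon protein in bacteria, also had an adjusted p under 0.05 toward blastocysts but stayed below 2-fold (log2 difference 0.66 ± 0.16, adjusted p = 0.0211). Of the stalk proteins, which recruit translation factors, MRPL10, the base of the stalk, did not pass the test (log2 difference 0.28 ± 0.10, adjusted p = 0.0896). The brightest probe of MRPL12, the mobile arm, which also binds the mitochondrial RNA polymerase in human cells, did not pass either (log2 difference 0.23 ± 0.13, adjusted p = 0.261), but 3 of its 6 probes had an adjusted p under 0.05 toward morulae and none toward blastocysts.

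In the small subunit, 5 of 24 members (20.8%) were called higher in morulae, against 7.15% of all named genes. None was called higher in blastocysts (against 10.2%), and the median difference was -0.49. MRPS18C, 1 of 3 mitochondrial copies of the bacterial protein S18, read 1.35 and 1.34 in the morula samples, 0.12 and -0.32 in whole blastocysts, 0.30 and -0.30 in dissected ICM and -0.27 and -0.63 in dissected TE. Its morula level was 2.73-fold that of blastocysts (log2 difference -1.45 ± 0.15, adjusted p = 0.000783). The other copies, MRPS18A and MRPS18B, had no named probe and were not analysed here. MRPS7 and MRPS10, both of the head of the subunit, were 2.27-fold and 2.18-fold higher in morulae (log2 differences -1.18 ± 0.18 and -1.12 ± 0.17, adjusted p = 0.00334 and 0.00378). MRPS7 read 1.22 and 1.61 in the morula samples, 0.28 and 0.18 in whole blastocysts, 0.27 and 0.03 in dissected ICM and 0.05 and -0.25 in dissected TE. MRPS31 and MRPS23, both particular to mitochondria, were the remaining calls (2.23-fold and 2.11-fold, adjusted p = 0.00152 and 0.000626). MRPS23 read 1.11 and 1.15 in the morula samples, 0.14 and -0.04 in whole blastocysts, 0.23 and 0.02 in dissected ICM and -0.24 and -0.44 in dissected TE, and no day 9 sample came within 0.8 of the morula samples. MRPS31 fell under 2-fold without blastocyst replicate 2 (log2 difference -0.96).

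Split by origin, all 15 small subunit members with a bacterial counterpart lay below 0 (3 called higher in morulae, 20.0%, median -0.58). Of 9 small subunit members particular to mitochondria 6 lay below 0 (2 called higher in morulae, 22.2%, median -0.29). In the large subunit, 20 of 27 members with a bacterial counterpart lay below 0 (median -0.55). Of these 27, 4 were called higher in morulae (14.8%) and 1 in blastocysts (3.7%). Of 14 large subunit members particular to mitochondria 12 lay below 0 (1 called higher in morulae, 7.14%, median -0.41). Over all named genes 5756 of 12552 lay below 0, 7.15% were called higher in morulae and 10.2% in blastocysts. The medians of all 4 groups were negative with normexp, with median centring, with the series matrix values and over the mean of a gene's probes. No test of a difference between the 4 groups was made.

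The small subunit members of highest intensity among those not called were MRPS28, MRPS26 and MRPS16. MRPS28, the counterpart of bacterial S1, split by replicate in place of stage: replicate 1, in Cy3, was negative in every group (-0.14, -0.53, -0.19 and -0.58 for morula, blastocyst, ICM and TE) and replicate 2, in Cy5, was positive (0.25, 0.24, 0.55 and 0.74). Its difference did not pass the test (log2 difference -0.20 ± 0.21, adjusted p = 0.543). Dye and replicate number cannot be told apart here. MRPS16 was lower in blastocysts by an adjusted p of 0.0245 at less than 2-fold (log2 difference -0.48).

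**Figure D3:**
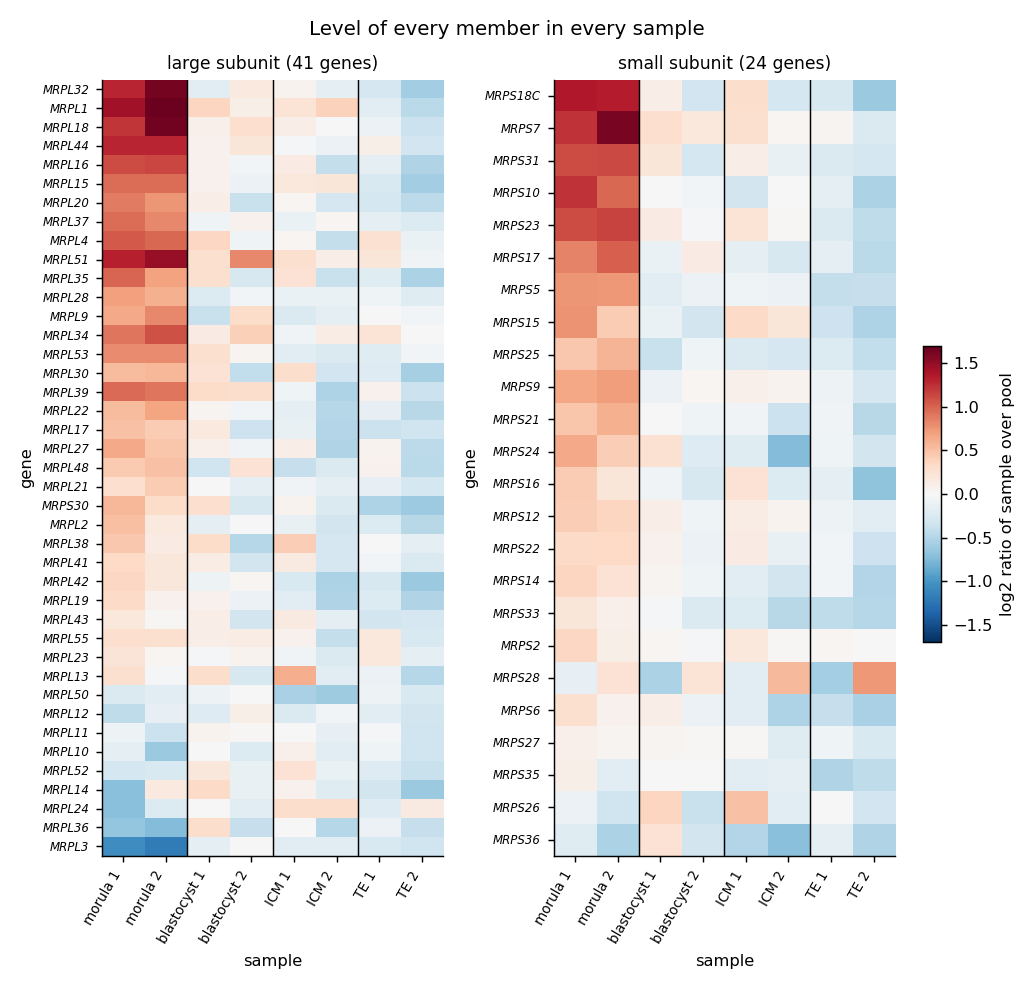
Level of each member (rows, sorted by the difference between blastocyst and morula within a subunit) in each sample (columns), as log2 ratio of sample over blastocyst pool; red is above and blue below the pool. Most rows are red in both morula columns and pale or blue from day 9 on, while MRPL3 and MRPL36 at the bottom left are blue in the morula columns.

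Because 44 of the 65 members had 2 to 6 probes, the probes of each gene were set side by side. For 26 of these 44 genes all probes were lower in blastocysts, for 3 all were higher, and for 15 the signs were mixed. The median range between the probes of a gene was 0.37 on the log2 scale. Over all 138 probes, 24 were called, 22 higher in morulae and 2 higher in blastocysts (all named probes: 6.04% and 7.36%), which spread over 18 genes. The 3 probes of MRPS31 agreed closely, at -1.16, -1.11 and -1.04. Both probes were also called for MRPL18, MRPL44 and MRPS10.

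Other genes were read differently by different probes. Of the 6 probes of MRPL12, the brightest gave 0.23 and the third -1.54 (adjusted p = 0.000405), and the values of the third were 1.49 and 1.59 in the morula samples and 0.13 and -0.13 in blastocysts. For MRPS35, particular to mitochondria, the brightest probe gave 0.04 and the other two -1.23 and -1.05, both called. MRPS26, also particular to mitochondria, gave 0.21 by its brightest probe and -1.05 by the dimmer one, which was called. For these 3 genes the choice of probe therefore decided the call. In MRPL24 it was the second of 6 probes that was called, higher in blastocysts (1.03, adjusted p = 0.00379), while the others lay between -0.37 and 0.37. MRPS16 and MRPS21 each had 1 probe with an adjusted p under 0.05 in each direction (-0.48 and 0.97 for MRPS16, -0.58 and 0.42 for MRPS21).

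A few probes were at background on both arrays of a group. The brightest probe of MRPL28 was at background on both TE arrays and 1 blastocyst array, so its level there is only a bound. It gave -0.79 between blastocyst and morula. The second probe, above background on all arrays, was called lower in blastocysts (-1.19, adjusted p = 0.0016), with values of 1.08 and 0.99 in the morula samples and -0.15 and -0.14 in blastocysts. The third probe of MRPL38 was at background in both blastocyst samples and the dim second probe of MRPS14 in both morula samples. Their brightest probes gave -0.39 and -0.32, neither past the test (adjusted p = 0.156 and 0.0892).

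**Figure D4:**
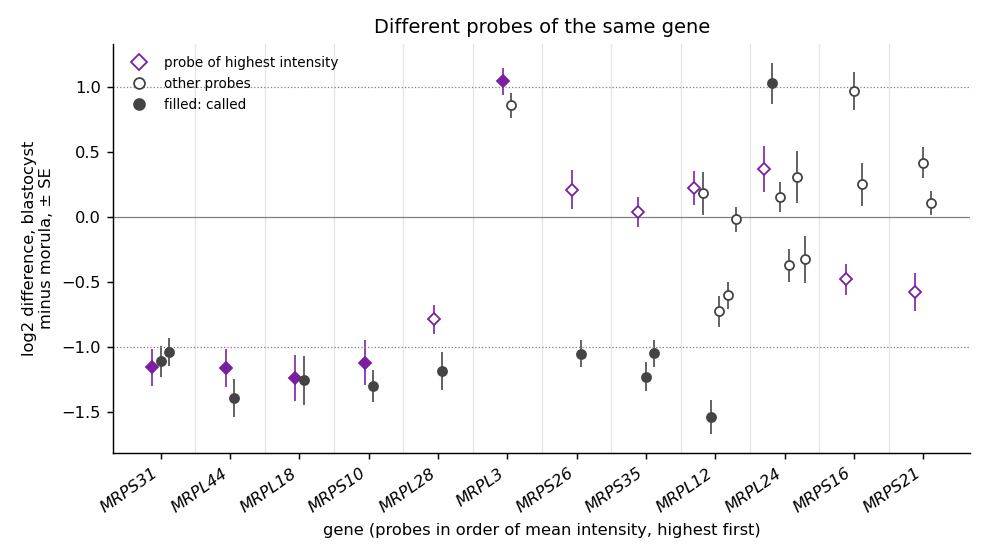
Log2 difference of blastocyst minus morula with its standard error (y axis) for every probe of 12 members (x axis); diamonds are the probe of highest intensity, filled symbols were called and dotted lines mark 2-fold. The probes of MRPS31, MRPL44, MRPL18 and MRPS10 lie together below -1, whereas those of MRPL12 run from -1.54 to 0.23.

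The dissected parts of the blastocyst were compared with the same 2 morula samples, so these comparisons are not independent of the one above. Between ICM and morula 15 members (23.1%) were called, all higher in morulae, against 6.72% of all named genes in that direction. Between TE and morula 20 members (30.8%) were called, again all higher in morulae, against 9.14%. The median difference from morula was -0.56 for the ICM and -0.74 for the TE, beside -0.51 for whole blastocysts. MRPL1 differed from morulae by -1.32 in whole blastocysts, by -1.23 in the ICM and by -1.87 in the TE. MRPL32 differed by -1.47, -1.51 and -1.90, and MRPS18C by -1.45, -1.35 and -1.79. In all 3 genes the TE stood lowest. MRPL3 was higher than in morulae by 0.94 in the ICM and 0.82 in the TE, under 2-fold in both.

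Between ICM and TE no member was called, against 1.56% of all named genes (limma; 15 members, 23.1%, had an unadjusted p under 0.05, against 21.8%). MRPS15, the counterpart of a bacterial protein that binds rRNA early in small subunit assembly, was the only member with an adjusted p under 0.05 (1.54%, against 4.42% of all named genes) and was named after its value was seen. It read 0.77 and 0.43 in the morula samples, -0.11 and -0.31 in whole blastocysts, 0.33 and 0.21 in dissected ICM and -0.35 and -0.52 in dissected TE. The ICM samples were above both TE samples and both blastocyst samples, by a log2 difference from the TE of 0.71 ± 0.10 (adjusted p = 0.025, 1.63-fold). That pass was lost, leaving 0 members, with normexp, with median centring, with no replicate block, with only the arrays compared in the fit and on leaving out any 1 ICM or TE sample. MRPL1 and MRPL15, also named after their values were seen, had differences of 0.63 and 0.61 that did not pass (adjusted p = 0.105 and 0.056).

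Across the members the ICM mean was above the TE mean in 52 of 65 genes, against 51.8% of all named genes. Both ICM samples were above both TE samples in 19 (29.2%, against 22.0% of all named genes). Both TE samples were above both ICM samples in 2 (3.08%, against 22.6%). The median difference, ICM minus TE, was 0.11, against 0.01 for all named genes, and its sign depended on the scaling. With median centring it was -0.02, and 31 of 65 members were then higher in the ICM, against 47.3% of all named genes. The brightest members outside the calls gave no difference past the test. MRPL53 differed by -0.09, MRPL39 by -0.15 and MRPL24 by 0.33 in the large subunit, and MRPS28 by 0.10, MRPS23 by 0.47 and MRPS26 by 0.31 in the small subunit (adjusted p from 0.0772 to 0.924).

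Against whole blastocysts, no member was called in the ICM (against 0.104% of all named genes) or in the TE (against 0.0478%), with 10 and 15 members at an unadjusted p under 0.05 (limma; 15.4% against 16.3% of all named genes, and 23.1% against 13.0%). Both blastocyst samples were above both TE samples for 29 members (44.6%, against 16.7%) and below them for none (against 15.5%), and with median centring the first count was 17 (against 7.82%). Both blastocyst samples were above both ICM samples for 18 (27.7%, against 16.2%).

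Other genes of mitochondrial gene expression were followed as lists. Of 7 mitoribosomal proteins that carry another symbol, none was called and the median difference was -0.50. An adjusted p under 0.05 toward morulae was found for 5 (71.4%, against 18.7% of all named genes). Lowest among them were CHCHD1 (-0.70) and PTCD3 (-0.67), both of the small subunit, while ICT1 (MRPL58) had -0.34 and MRP63 (MRPL57) 0.06. A list of 10 genes of mitochondrial DNA, transcription and RNA processing went the same way. All lay below 0, and 7 had an adjusted p under 0.05 (70.0%, against 18.7% of all named genes in that direction). The median was -0.79, and 2 were called higher in morulae (20.0%, against 7.15%). These were POLRMT, the mitochondrial RNA polymerase (log2 difference -1.25 ± 0.09, adjusted p = 0.000255), and PNPT1, a mitochondrial RNA exonuclease (log2 difference -1.21 ± 0.12, adjusted p = 0.000602), and neither was called over the mean of its probes.

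Of the lists for assembly of the ribosome, its translation factors and its tRNA ligases, the called genes were all higher in blastocysts. They were only 2, 1 and 3 genes (15.4%, 10.0% and 23.1%), against 10.2% of all named genes in that direction. Of 13 assembly factors 2 were called, but 5 had an adjusted p under 0.05 toward morulae and 2 toward blastocysts, 7 lay below 0 and the median was -0.01. MPV17L2, a membrane protein needed for ribosome biogenesis in human mitochondria, read -2.27 and -2.63 in the morula samples, 0.12 and -0.16 in whole blastocysts, -0.51 and -0.58 in dissected ICM and 0.17 and 0.10 in dissected TE (log2 difference 2.43 ± 0.11, adjusted p = 6.92e-05). YBEY, an endonuclease of rRNA in bacteria, had log2 difference 2.42 ± 0.14, adjusted p = 0.000126. Both morula samples of either gene were more than 1.5 below every day 9 sample. Of 13 tRNA ligases and related enzymes 3 were called, all higher in blastocysts (IARS2 2.34, PET112L 1.73 and WARS2 1.11, adjusted p from 0.000194 to 0.000386), and the median was 0.06. Of 10 translation factors 1 was called, LONP1, a matrix protease and not itself a factor (2.09, higher in blastocysts), 3 had an adjusted p under 0.05 toward blastocysts and 2 toward morulae, and the median was 0.15. With median centring the medians of the tRNA ligases and of the translation factors turned negative (-0.12 and -0.11).

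Of 19 genes of mitochondrial protein import 4 were called, all higher in morulae (21.1%, against 7.15% of all named genes), and the median was -0.47. TIMM44 (-1.55) and TIMM23 (-1.44) belong to the inner membrane translocase for matrix proteins. The other called genes were TIMM8A (-1.91), a chaperone of the intermembrane space, and TIMM22 (-1.43), of the carrier translocase. The adjusted p of the 4 genes ran up to 0.000912 (limma). Of all 19 import genes, 11 had an adjusted p under 0.05 toward morulae (57.9%, against 18.7% of all named genes). Toward blastocysts there were 2 (10.5%, against 21.1%), and 7 of the 19 lay above 0. Among 11 nuclear regulators of mitochondrial genes 2 were called, both higher in morulae (18.2%, against 7.15% of all named genes). They were PPARGC1B, a coactivator (-2.05), and GABPA, an ETS factor also called nuclear respiratory factor 2 (-1.96). Another regulator, NRF1, was at -0.08 (adjusted p = 0.616). Of the 11 regulators, 5 had an adjusted p under 0.05 toward morulae (45.5%, against 18.7% of all named genes). Toward blastocysts there were 3 (27.3%, against 21.1%). The regulators had a median of -0.45, and 4 of them lay above 0, up to 0.998. Genes taken as measures of membrane and matrix content lay near 0 to positive. Their median was 0.16, and -0.08 over the mean of probes. Of these 9 genes, VDAC2 was called higher in blastocysts (2.33), a share of 11.1% against 10.2% of all named genes. None was called higher in morulae. GLUD1, a matrix enzyme of that list, was the only gene of all these lists called between ICM and TE (log2 difference 1.24, adjusted p = 0.0199), and the call was lost on leaving out any 1 replicate of either tissue. Of 7 genes of mitochondrial dynamics, MFN1 (3.24) and MFN2 (2.29), which fuse outer membranes, were called higher in blastocysts (28.6%, against 10.2% of all named genes). However, 5 lay below 0, 3 of them with an adjusted p under 0.05, and the median was -0.14.

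**Figure D5:**
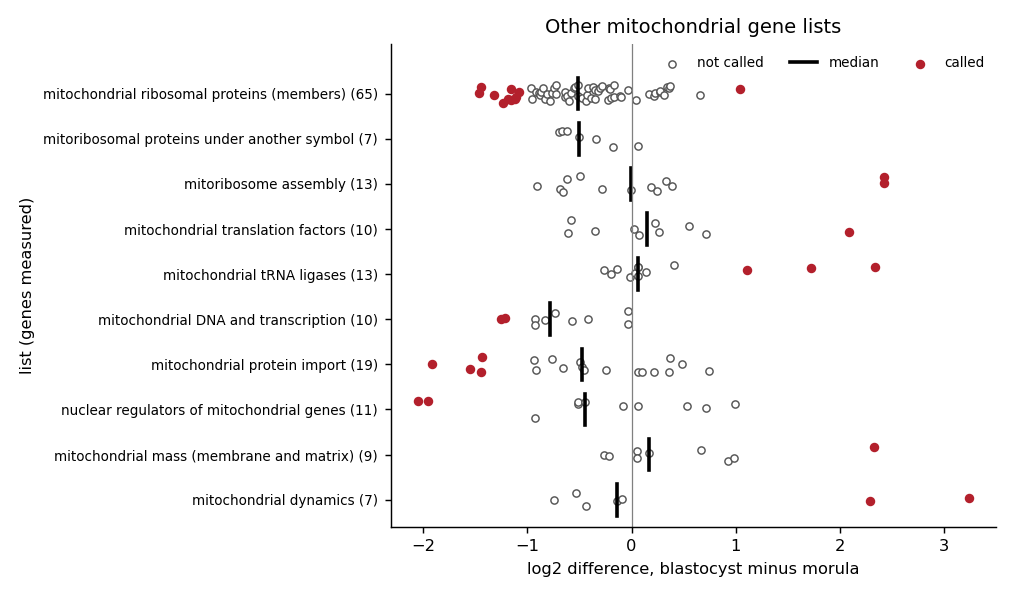
Log2 difference of blastocyst minus morula (x axis) for the members and for 9 other lists of mitochondrial genes (y axis, with the number measured); each point is 1 gene, red where called, and black bars are medians. Called members, import genes and transcription genes lie on the left, apart from MRPL3, and called assembly factors, tRNA ligases and fusion genes lie on the right.

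As a frame for these values, the 68 cytosolic ribosomal protein genes had a median of 0.39, with 61 above 0. Of them, 20 had an adjusted p under 0.05 toward blastocysts (29.4%, against 21.1% of all named genes). Only 2 were called, both higher in morulae (2.94%, against 7.15%). That median turned to -0.22 with the series matrix values, so no direction is given for it, whereas the median of the members stayed between -0.74 and -0.42 over the same scalings and the mean over probes. The 83 genes of oxidative phosphorylation, the process that mitochondrial translation serves, had a median of -0.03. Called higher in blastocysts were 2 (2.41%, against 10.2% of all named genes) and in morulae 3 (3.61%, against 7.15%). The differences between these lists and the members were not tested.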

How the data were processed

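The intensity values deposited by the authors were spot means for each channel, read with Imagene 8.0 without normalization or background subtraction. The series matrix deposited by the authors held log2 values, loess-normalized and corrected for dye bias. They followed the log2 ratio of sample over pool of the same array (r from 0.727 to 0.993 over probes), which settled their scale and direction, and had medians from -0.0023 to 0.012. They served as an alternative. No genome build entered these files.

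Log2 ratios were formed from mean intensities, without background subtraction, which the methods do not state, and normalized by loess within each array, leaving out control spots (1567 of 45220). Group means and dye orientation were fitted to all 8 arrays with limma 3.58.1 in R 4.3.3, with Benjamini-Hochberg adjustment over 43653 gene probes. Each probe had 3 residual and 3.17 prior degrees of freedom. Dye orientation equals the replicate number, so it is also the replicate block: differences between replicates correlated over probes between groups at 0.201 to 0.486. Above background meant over the local background mean plus 2 standard deviations, and 65000 or more counted as saturated. Of the 12552 gene symbols 11579 were current and 838 were synonyms in RefSeq. All 65 member symbols were current. The model was tested on simulated data. Summaries were made in Python 3.11.15 (numpy 2.4.6, pandas 2.3.3) and figures with matplotlib 3.10.9.

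Genes were named by rule: called members, up to 15 in each direction of the comparisons of blastocyst with morula and ICM with TE, the 3 brightest uncalled members of each subunit, members with a called probe from which another differed by over 1, members at background on both arrays of a group, MRPS18C, MRPL10 and MRPL12, and up to 3 called genes of each other list. Other names were chosen after their values were seen. The members and lists were chosen with earlier results of these data known. Each result was recomputed with normexp (offset of 50), with quantile normalization of average intensities, with median centring, the series matrix values, the upper 60% of intensity, no replicate block, only the arrays compared, other fold minimums, the mean over probes, every probe, and each replicate left out. Promoter and protein sequences were not used here.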

Additional observations from a re-analysis of the deposited data

How the results depend on the processing

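The members' median difference between blastocyst and morula stayed negative under every alternative, whereas the count of called members depended on the threshold, on the scaling and on 1 morula sample. The fit held 2 samples a group. Its p-values rest on the spread left within the groups after the dye term. That spread is drawn toward a value shared by all gene probes (3.17 prior beside 3 residual degrees of freedom). The p-values do not measure the spread over further samples. Counts of called members are given for blastocyst, ICM and TE against morula in that order, from 11, 15 and 20. They became 30, 34 and 39 at a 1.5-fold minimum, for which shares over all named genes are not reported here. With no fold minimum they became 38, 44 and 46 (58.5%, 67.7% and 70.8%), against 39.9%, 40.5% and 44.6% of all named genes. Of these members, 2, 3 and 1 were higher in blastocyst, ICM and TE. Counted as probes, 24, 32 and 35 of 138 were called (17.4%, 23.2% and 25.4%), against 13.4%, 13.2% and 15.9% of all named probes. Of these probes, 2, 2 and 1 were higher in blastocyst, ICM and TE. With median centring the members called became 21 and 30 for blastocyst and ICM, and 29 for TE, beside 2333, 2436 and 2697 of the 12552 named genes. Leaving out 1 replicate gave 6 (without morula replicate 2) to 15, 13 to 21 and 18 to 23. Between ICM and TE, 1 member (MRPS15) passed at a 1.5-fold minimum and 1 with no fold minimum, and at 2-fold 0 were called on leaving out any replicate. With no fold minimum, that 1 became 0 with normexp, median centring, no replicate block, only the arrays compared, or without any 1 ICM or TE sample. The replicate block is the dye term of the fit, and with no replicate block the counts were 11, 15, 20 and, for ICM against TE, 0, as in the fit with it. Quantile normalization of average intensities leaves each ratio as it is by construction.

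The median difference of the members between blastocyst and morula, -0.51, was -0.74 with median centring, -0.42 over the mean of each gene's probes, -0.38 over every probe and -0.59 to -0.41 on leaving out a replicate. Between ICM and TE the median of 0.11 was -0.018 with median centring, 0.0997 over every probe and 0.0895 to 0.20 on leaving out a replicate. Of the values of single named genes under these settings, 701 kept their sign and call, 20 lost the call and 14 changed sign, all of the latter in genes not called. Between blastocyst and morula, MRPS26 was -0.0157 with median centring and -0.42 over the mean of its probes, MRPL12 -0.051 and -0.41, and MRPS35 -0.24 and -0.75, with -0.0248 under normexp. MRPS16 was 0.25 over the mean of its probes. Between ICM and TE, MRPL53 was 0.0173 over the mean of its probes and MRPS28 -0.0402 with median centring. Leaving out a replicate gave -0.48 to 0.0704 for MRPS28 and -0.12 to 0.20 for MRPS35 between blastocyst and morula, and -0.22 to 0.0305 for MRPL53 and -0.25 to 0.45 for MRPS28 between ICM and TE. The cause of these changes was not tested.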

Other observations

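A few members, named after their values were seen, differed between the replicates of a group or had their lowest values in the ICM. MRPL14, a large subunit protein with a bacterial counterpart, was at -0.71 in morula replicate 1 and at 0.17 in morula replicate 2, the widest gap between the morula samples among the 65 members, and its difference between blastocyst and morula had the largest standard error of them (0.32). MRPL51, a large subunit protein particular to mitochondria, was at 0.27 and 0.82 in the blastocyst samples, where the second was the highest of all members in that sample, and at 1.32 and 1.47 in morulae. MRPL13, with a bacterial counterpart, was at 0.61 in ICM replicate 1, the highest of all members there, and at -0.19 in ICM replicate 2. MRPS36, which is also known as a component of the 2-oxoglutarate dehydrogenase complex, had its lowest values in the ICM (-0.50 and -0.71), unlike most members, and its difference of -0.27 from the TE did not pass the test (adjusted p = 0.309, limma). MRPL50, particular to mitochondria, had the lowest difference between ICM and TE, -0.41 (adjusted p = 0.109), with -0.56 and -0.61 in dissected ICM, beside -0.08 and -0.26 in the TE.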
